A study of Mus musculus with 8 samples.

Results

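The insulin receptor substrates, the Grb and Gab adaptors and the receptors that use them were followed in mouse mammary epithelial cells carrying a PTB domain mutant of ShcA. The 10 genes, Irs1, Irs2, Insr, Igf1r, Grb2, Grb7, Grb10, Grb14, Gab1 and Gab2, were selected by name, and every non-control probe whose gene name in the files is one of them was taken, each on its own. This gave 14 probes out of 39429 probes with 30222 gene names. The set was chosen with the R175Q difference of Irs1, Irs2 and Grb7 (and, under another background correction, Gab1 and Grb14) already known from these same arrays, so the differences of the members below are a description and their adjusted p-values are not given.

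RNA came from NMuMG-NT2197 cells, which descend from the epithelial mouse mammary line NMuMG and express activated Neu (ErbB2). Cells of the R175Q group (4 samples) carried, from a pMSCV/hygro vector, a cDNA of the R175Q mutant of ShcA, in which glutamine replaces an arginine of the PTB domain, and cells of the wild-type group (4 samples, titled nT) carried wild-type ShcA cDNA from the same vector. The labels name no deletion of the cells' own Shc1 gene, and they do not say whether a group is a clone or a pool or whether its replicates have separate origins, so p-values measure only the spread between these samples, which may be technical. Each sample was labelled with Cy3 and hybridized with a reference RNA in Cy5 on a 2-colour Agilent array, without dye exchange, after 2 rounds of linear amplification. The labels name the reference as mouse in one field and human in another, and they call cultured cells microdissected. All ratios are log2 of Cy3 sample over Cy5 reference, and a difference is R175Q minus wild type on that scale.

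Activated insulin and IGF-1 receptors phosphorylate the docking proteins IRS1 and IRS2, which recruit PI3-kinase and GRB2. SHC proteins bind the same juxtamembrane motif through their PTB domain and also recruit GRB2, which carries SOS to the membrane and opens the Ras-ERK route. GAB1 and GAB2 are docking proteins that GRB2 brings to receptors, and GRB7, GRB10 and GRB14 form a separate family of adaptors with an SH2 domain that bind receptors directly. GRB10 and GRB14 are known as inhibitors of the insulin receptor, while GRB7 is known from ErbB2 signalling, its gene lying next to Erbb2.

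The share of non-control spots well above background was 53.7% to 63% in the sample channel and 61.1% to 71.7% in the reference channel, with 0 saturated spots. Ratios correlated across probes at 0.98 to 0.996 between arrays of a group. Shc1 itself had a mean ratio of 1.00 ± 0.21 in R175Q and 1.12 ± 0.10 in wild type (SD, n = 4 each), a difference of −0.12 ± 0.10 (SE, limma adjusted p = 0.496). Since both groups carry a ShcA cDNA, this level does not check the labels, and the arrays cannot see the substitution. Of 22847 probes tested, 1807 were called higher and 2221 lower in R175Q at an adjusted p under 0.05 (limma), or 17.6% in all and 9.72% lower. With each array centred on its median in place of loess, 2791 were higher and 813 lower. Of 10 luminal epithelial markers of the labelled cell type, 7 passed the brightness filter and Cldn3, Cldn4 and Elf5 did not. Mean ratios in R175Q were 4.73 for Cdh1, 1.81 for Krt18, 1.66 for Krt19, 1.43 for Krt8 and 0.68 for Muc1, but −3.42 for Cldn7 and −5.06 for Epcam, far below the reference. In wild type they were 4.75 for Cdh1, 2.00 for Krt18, 2.07 for Krt19, 1.64 for Krt8, 1.21 for Muc1, −3.27 for Cldn7 and −4.80 for Epcam.

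In R175Q cells 5 of the 13 member probes that could be tested were called, all of them lower: Irs1 (probe 1), Irs2, Grb7, Grb14 and Gab1. This is 38.5% of the tested member probes against 17.6% of all probes, and nothing is read from the gap because the members were chosen with this contrast known. The largest fall was that of Grb14, at 2.13-fold, followed by Irs1 at 1.65-fold, Grb7 at 1.595-fold, Gab1 at 1.28-fold and Irs2 at 1.27-fold. This order holds for the background correction used for the reported values. When the background was fitted by normexp on all spots, Grb14 and Irs1 probe 1 both differed by −0.69 and Grb14 was not called. The other 8 tested probes, those of both receptors, Grb2, Gab2 and the second Irs1 probe, were not called. The 14th probe, that of Grb10, did not rise well above background in Cy3 on any of the 8 arrays and was not tested.

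**Figure D1:**
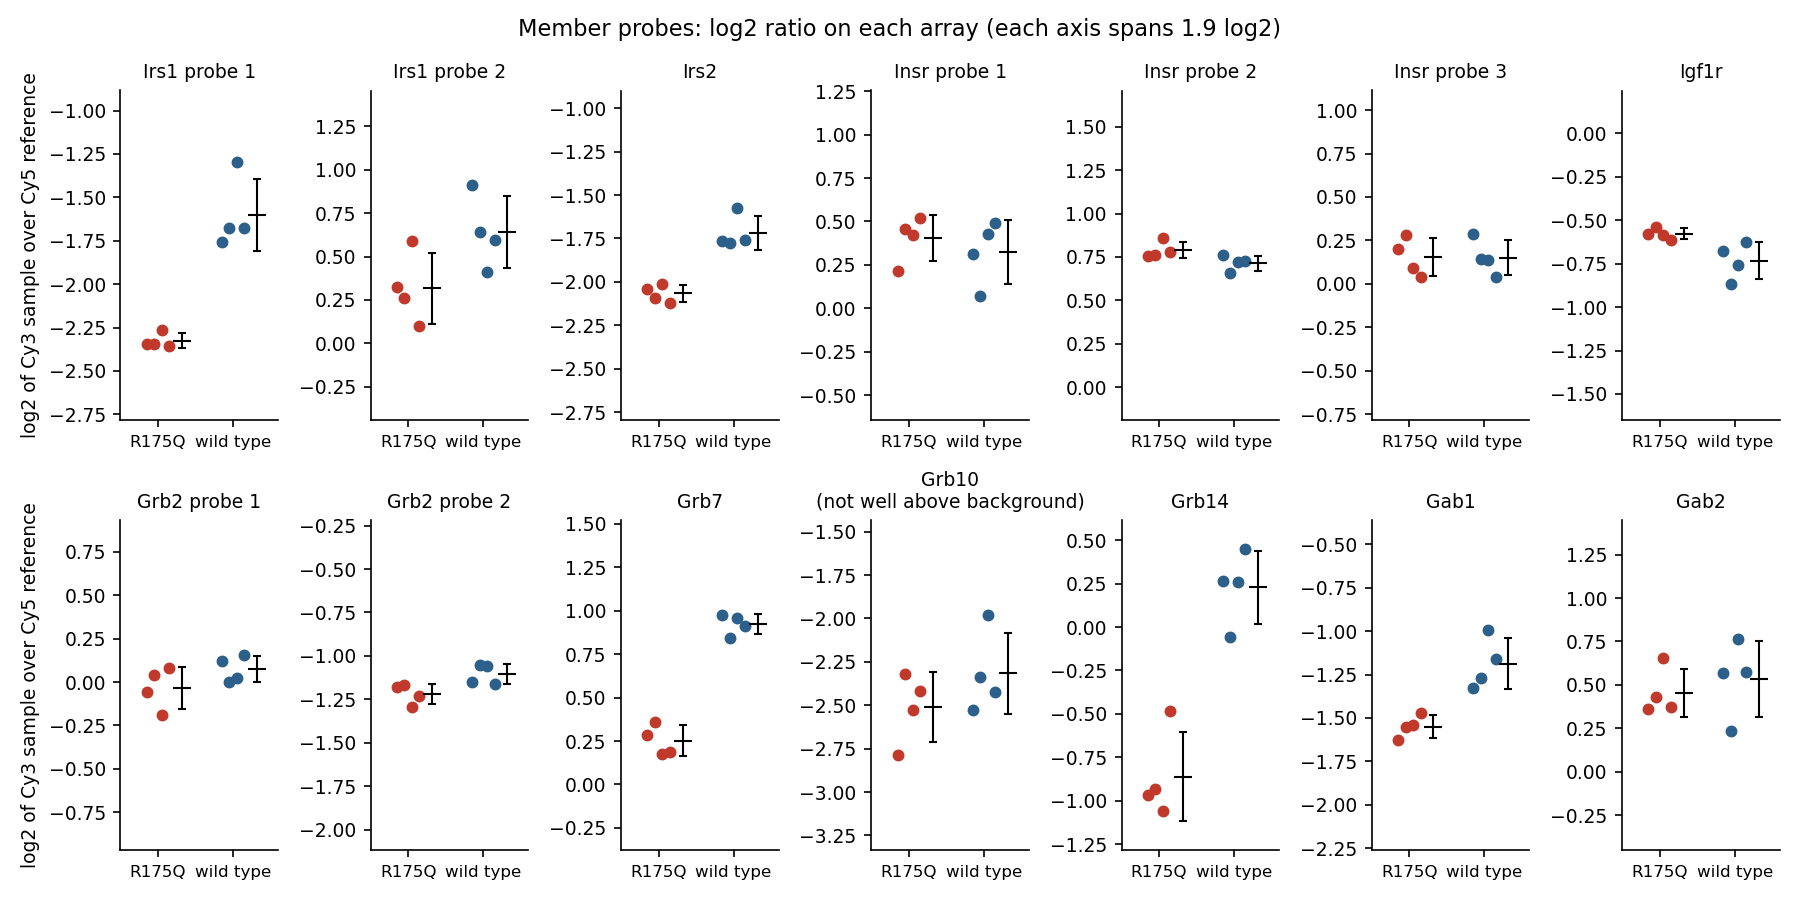
Log2 ratio of Cy3 sample over Cy5 reference for each of the 14 member probes, 1 panel a probe, with R175Q arrays in red and wild-type arrays in blue. Points are arrays, and the bar beside them is the mean with its SD (n = 4 each). R175Q arrays lie below all wild-type arrays for Irs1 probe 1, Irs2, Grb7, Grb14 and Gab1. By a narrow margin they also lie below them for Grb2 probe 2 and above them for Igf1r.

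The array reads each transcript through a probe of 60 bases. The last 30 bases are shown for both Irs1 probes and for those of Irs2, Grb7, Grb14 and Gab1, the genes on which the results turn, with the polyadenylation words AATAAA and ATTAAA in capitals, which are found near the ends of many transcripts. Among all probes 16.7% hold one of these words.
Irs1 probe 1, chr1:82229692-82229751, minus strand: gtagtgtcttcatcgttaATTAAAgaaaac
Irs1 probe 2, chr1:82233564-82233623, minus strand: tagactaggggatgatccttgttttcaggt
Irs2, chr8:11004490-11004549, minus strand: aagcatcgacttcctgtcccatcacttgaa
Grb7, chr11:98316616-98316675, plus strand: tctgttttataccagtaacAATAAAgatta
Grb14, chr2:64750542-64750601, minus strand: taaatttattagttaaaATTAAAccttatt
Gab1, chr8:83289342-83289401, minus strand: gtcagacaaagtgcttcagttagtgtgcgt
Positions are those of the files, in mm9. The probes of Irs1 (probe 1), Grb7 and Grb14 hold such a word and those of Irs2, Gab1 and Irs1 (probe 2) do not. None of the member probes not shown, those of Insr, Igf1r, Grb2, Grb10 and Gab2, holds one in its 60 bases. No gene model of that build was used, so whether a probe lies in a coding part or beyond it was not determined.

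The receptors were not called. Insr, which encodes the insulin receptor, was read by 3 probes, all well above background on 8 of 8 arrays, with differences of 0.08 ± 0.10, 0.08 ± 0.05 and 0.0014 ± 0.076 (SE). For probe 1 the ratios ran from 0.21 to 0.52 in R175Q and from 0.073 to 0.49 in wild type, and for probe 2 from 0.76 to 0.86 in R175Q and from 0.66 to 0.76 in wild type. For probe 3 they ran from 0.04 to 0.28 in R175Q and from 0.04 to 0.29 in wild type, and the groups overlapped for all 3 probes. The signal of probe 3 was low, with Cy3 intensities of 85.8 to 96.1 in R175Q and 87.2 to 146.9 in wild type. Its local backgrounds were 31 to 36 in R175Q and 30.5 to 67 in wild type, so its small difference says little. The probes lie on the minus strand at chr8:3151667-3151726, chr8:3154024-3154083 and chr8:3155472-3155531. Igf1r, the IGF-1 receptor, read at chr7:75378461-75378520 on the plus strand, had ratios of −0.58, −0.54, −0.59 and −0.61 in R175Q and −0.68, −0.87, −0.76 and −0.62 in wild type. Its groups did not overlap, by a narrow margin, and the difference of 0.15 ± 0.07 did not pass the threshold. Across all tested probes the groups did not overlap for 22.9%, and among the 13 tested member probes this was so for 7: the 5 called, Igf1r and Grb2 probe 2.

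Both receptor substrates were lower in R175Q. Irs1, the main docking protein of the insulin and IGF-1 receptors, read through probe 1, had ratios of −2.34, −2.34, −2.26 and −2.36 on R175Q arrays and −1.76, −1.68, −1.30 and −1.68 on wild-type arrays. All R175Q arrays lay below all wild-type arrays, with wild-type replicate 3 the highest. The means were −2.33 ± 0.04 in R175Q and −1.60 ± 0.21 in wild type (SD, n = 4 each), and the difference was −0.72 ± 0.10 (SE). Spot intensities in Cy3 were 842.1 to 1256 in R175Q and 1406 to 2056 in wild type over local backgrounds of 31 to 44.5.

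Irs1 probe 2 lies 3872 bases from probe 1, upstream along the transcript, and gave no call. Its Cy3 intensities were 72.5 to 81.0 in R175Q and 81.9 to 98.4 in wild type, and it stood well above background on 2 of 4 R175Q arrays and 4 of 4 wild-type arrays, so it entered the test partly through the wild-type group. Its ratios were 0.32, 0.26, 0.59 and 0.10 in R175Q and 0.91, 0.64, 0.41 and 0.60 in wild type, and the groups overlapped. The Cy5 reference was weak as well, at 95.3 to 110.6 in R175Q and 90.05 to 107.4 in wild type. In Cy5 the probe was not well above background on R175Q replicates 2 and 4 and wild-type replicates 1, 2 and 4. Both sides of its ratio are thus near the background. The difference was −0.32 ± 0.12 (SE), the same sign as probe 1. It was called in the deposited table at −0.47 ± 0.12 and with the scanner software's processed ratio at −1.15 ± 0.25, and had the opposite sign, 0.055 ± 0.10, when the background was fitted by normexp on all spots.

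Irs2, the second widely expressed docking protein of these receptors, had ratios of −2.04, −2.09, −2.01 and −2.12 in R175Q and −1.77, −1.78, −1.57 and −1.76 in wild type. The groups did not overlap, and wild-type replicate 3 stood above the other wild-type arrays. The means were −2.07 ± 0.05 in R175Q and −1.72 ± 0.10 in wild type (SD, n = 4 each), a difference of −0.35 ± 0.06 (SE). With median centring in place of loess the difference was −0.24 ± 0.08 and was no longer called.

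Grb2, the adaptor that links SHC, IRS and GAB proteins to SOS, was not called by either of its probes, at chr11:115505444-115505488 and chr11:115506057-115506116 on the minus strand. Probe 1 gave −0.06, 0.041, −0.19 and 0.081 in R175Q and 0.12, 0.0027, 0.022 and 0.15 in wild type, with overlapping groups and a difference of −0.11 ± 0.07 (SE). Probe 2 gave −1.18, −1.17, −1.29 and −1.23 in R175Q and −1.15, −1.05, −1.06 and −1.16 in wild type, groups that just failed to overlap, and a difference of −0.11 ± 0.06. Median centring turned both signs, to 0.015 and 0.032, and the Cy3 channel alone turned that of probe 2, to 0.0020.

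Grb7, the family member known for binding ErbB2, had ratios of 0.28, 0.36, 0.17 and 0.18 in R175Q and 0.98, 0.85, 0.96 and 0.91 in wild type. All R175Q arrays lay below all wild-type arrays. The means were 0.25 ± 0.09 in R175Q and 0.92 ± 0.06 in wild type (SD, n = 4 each), a difference of −0.67 ± 0.06 (SE). Grb7 and Irs1 probe 1 were called under all 21 alternative settings run, Grb7 with values of −0.80 to −0.58 and Irs1 with values of −0.78 to −0.62.

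Grb14, an inhibitor of the insulin receptor in liver and other tissues, had ratios of −0.97, −0.93, −1.06 and −0.48 in R175Q and 0.26, −0.056, 0.26 and 0.45 in wild type. No R175Q array reached the lowest wild-type array, although R175Q replicate 4 stood above the other R175Q arrays. The means were −0.86 ± 0.26 in R175Q and 0.23 ± 0.21 in wild type (SD, n = 4 each), a difference of −1.09 ± 0.14 (SE). Its signal was low, with Cy3 intensities of 94.2 to 116.7 in R175Q and 169 to 308.2 in wild type over a local background of 33 to 38, though well above background on all arrays by the scanner software's criterion. With normexp fitted on all spots the difference was −0.69 ± 0.18 and was not called, and with the scanner software's processed ratio it was −1.68.

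Grb10, an imprinted gene whose product inhibits insulin and IGF-1 receptors and curbs growth, was not well above background in the cells of either group. Its Cy3 intensity was 55.8 to 79.7 in R175Q and 48.3 to 58.7 in wild type over local backgrounds of 30.5 to 44.5, while the reference gave 597 to 725.6 in Cy5 and was well above background on 8 of 8 arrays. The probe lies at chr11:11833165-11833224 in mm9, and no fold is given.

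Gab1, a docking protein downstream of ErbB, MET and insulin receptors, had ratios of −1.63, −1.56, −1.54 and −1.47 in R175Q and −1.33, −1.27, −0.99 and −1.16 in wild type. The groups did not overlap, and the means were −1.55 ± 0.06 in R175Q and −1.19 ± 0.15 in wild type (SD, n = 4 each), a difference of −0.36 ± 0.08 (SE). It was not called with slide as a fixed block, at −0.32 ± 0.09, or with normexp on all spots, at −0.39 ± 0.16. Gab2, the related docking protein known from breast cancers with amplified copies, read at chr7:104453474-104453533 on the plus strand, had ratios of 0.36 to 0.66 in R175Q and 0.23 to 0.76 in wild type, which overlapped. It was well above background on 2 of 4 R175Q and 4 of 4 wild-type arrays, with intensities of 84.1 to 94.8 in R175Q and 91.5 to 120.7 in wild type, and its difference was −0.08 ± 0.11.

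The channels were also read apart. In Cy5, which holds the same reference on all arrays, the differences were −0.034 ± 0.079 for Irs1 probe 1, −0.0026 ± 0.073 for Irs2, −0.10 ± 0.07 for Grb7, −0.19 ± 0.22 for Grb14 and 0.040 ± 0.057 for Gab1 (SE, quantile-normalized Cy5). In Cy3 alone, likewise normalized, they were −0.76 ± 0.10 for Irs1 probe 1, −0.34 ± 0.06 for Irs2, −0.80 ± 0.06 for Grb7, −1.22 ± 0.17 for Grb14 and −0.30 ± 0.07 for Gab1.

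**Figure D2:**
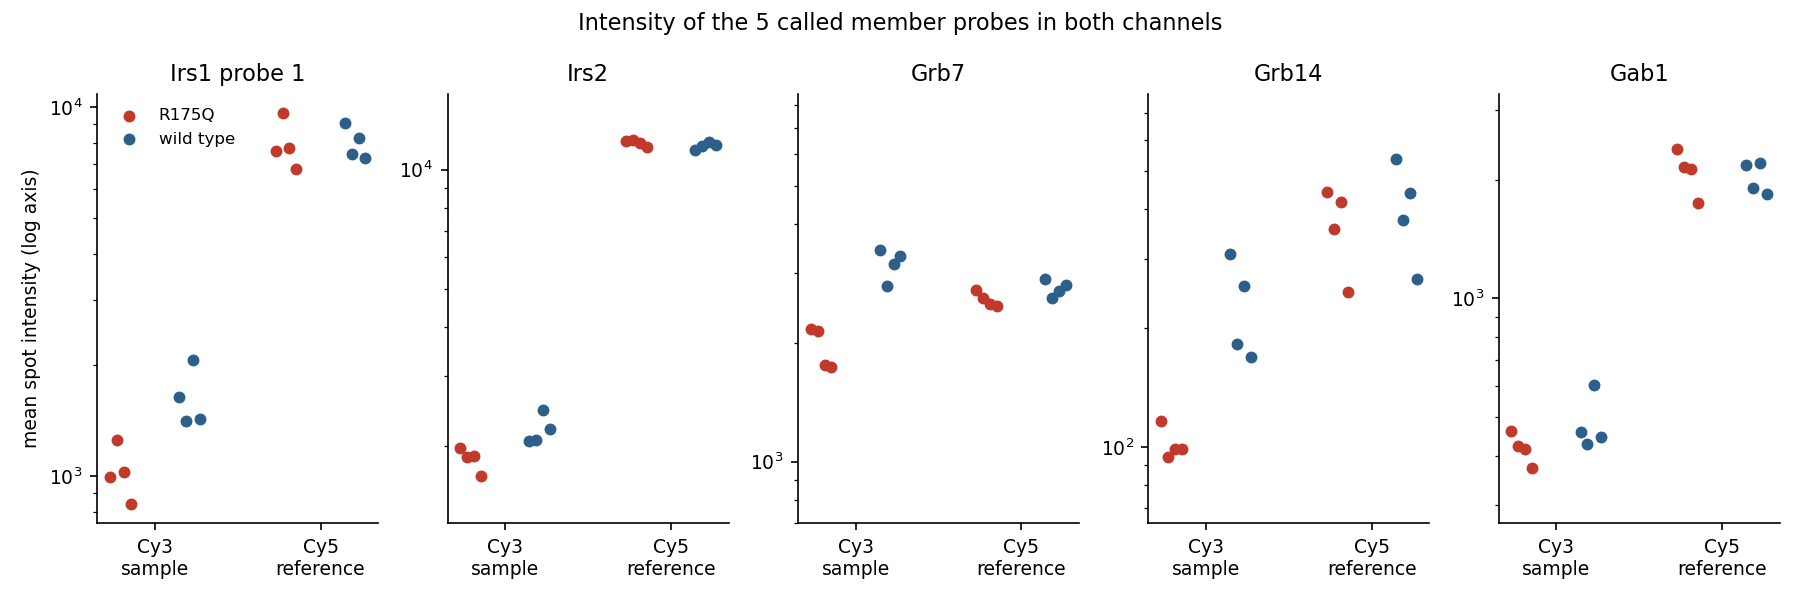
Mean spot intensity (log axis) of the 5 called member probes in the Cy3 sample channel and the Cy5 reference channel, before normalization, with R175Q arrays in red left of wild-type arrays in blue. For Irs1 probe 1, Irs2, Grb7 and Grb14 the R175Q arrays lie below the wild-type arrays in Cy3, and for all 5 probes the groups overlap in Cy5.

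The arrays lay on 4 slides, and 3 slides held both groups. Within those slides each difference rests on 1 R175Q array. For the 5 called probes the groups did not overlap, so their within-slide differences could only be negative, and their sizes are given as a description. Irs1 probe 1 differed by −0.58, −0.78 and −0.68 on slides 2, 3 and 4, Irs2 by −0.33, −0.34 and −0.36, and Grb7 by −0.62, −0.73 and −0.73. Grb14 differed by −1.20, −1.16 and −0.93 and Gab1 by −0.23, −0.41 and −0.31. Of the uncalled probes, Grb2 probe 2 was negative and Igf1r positive on all 3 slides, signs likewise fixed because their groups did not overlap. Grb2 probe 1 was negative and Insr probes 1 and 2 positive on all 3 slides, with overlapping groups. The sign was mixed for Irs1 probe 2 (−0.65, 0.061 and −0.50), Gab2 (−0.14, 0.16 and −0.20) and Insr probe 3 (−0.0068, −0.051 and 0.00039). Scan days follow the slides in part, with slides 3 and 4 scanned on one day, and with scan day as a block all 5 probes stayed called. With slide as a fixed block 12% of all probes were called and 4 of the 5 member probes, the exception being Gab1.

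**Figure D3:**
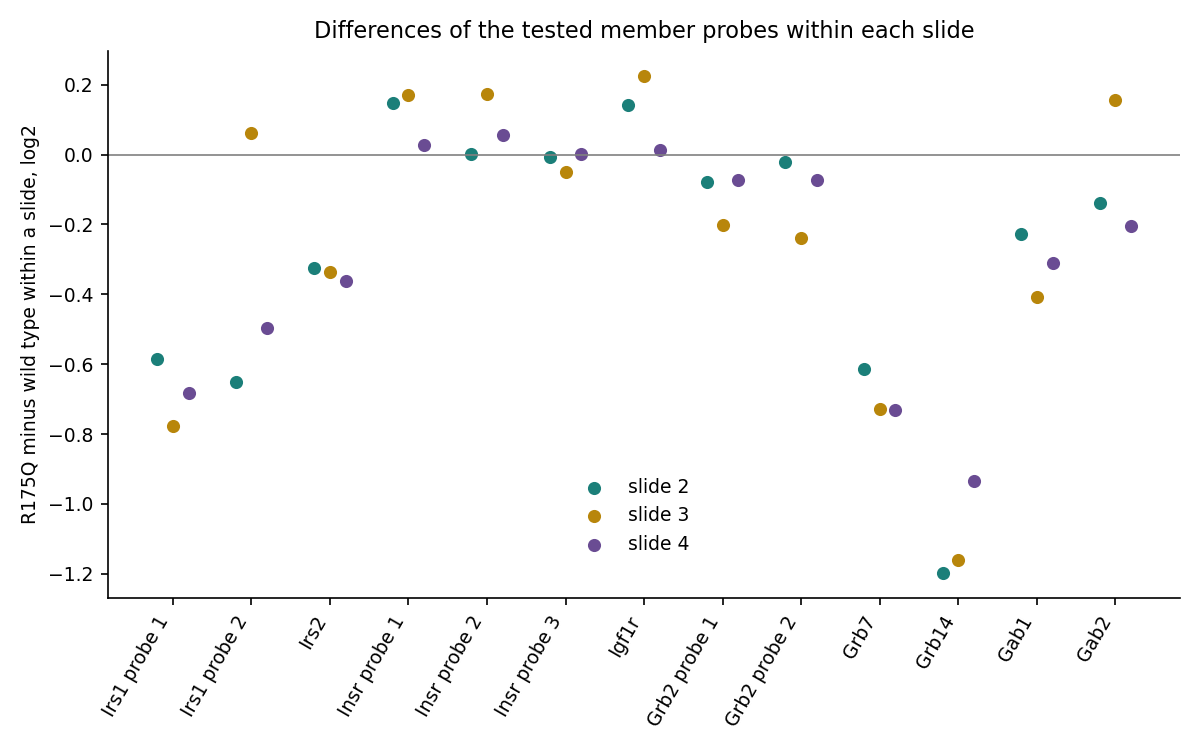
R175Q minus wild type (log2) within each of the 3 slides that held both groups, for the 13 tested member probes; each point rests on 1 R175Q array and 1 or 2 wild-type arrays. The points of Irs1 probe 1, Irs2, Grb7, Grb14, Gab1 and both Grb2 probes lie below 0, and those of Insr probes 1 and 2 and Igf1r above 0. Irs1 probe 2, Insr probe 3 and Gab2 have points on both sides. The groups do not overlap for the 5 called probes, Grb2 probe 2 and Igf1r, so their signs were fixed.

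Among the background treatments tried, only normexp fitted on all spots lost 2 of the 5 calls. When normexp was fitted on all spots, the fitted Cy3 background lay between −690 and −0.369 over the 8 arrays, against means of 13.8 to 23.9 for the negative controls, and 4.01% of all probes were called. Under that fit Irs1 probe 1 (−0.69 ± 0.13), Irs2 (−0.38 ± 0.07) and Grb7 (−0.61 ± 0.07) stayed called and Grb14 and Gab1 did not. In the authors' deposited ratios all 5 were called, together with Irs1 probe 2. The same probes were called with no background correction and with the scanner software's processed ratio.

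**Figure D4:**
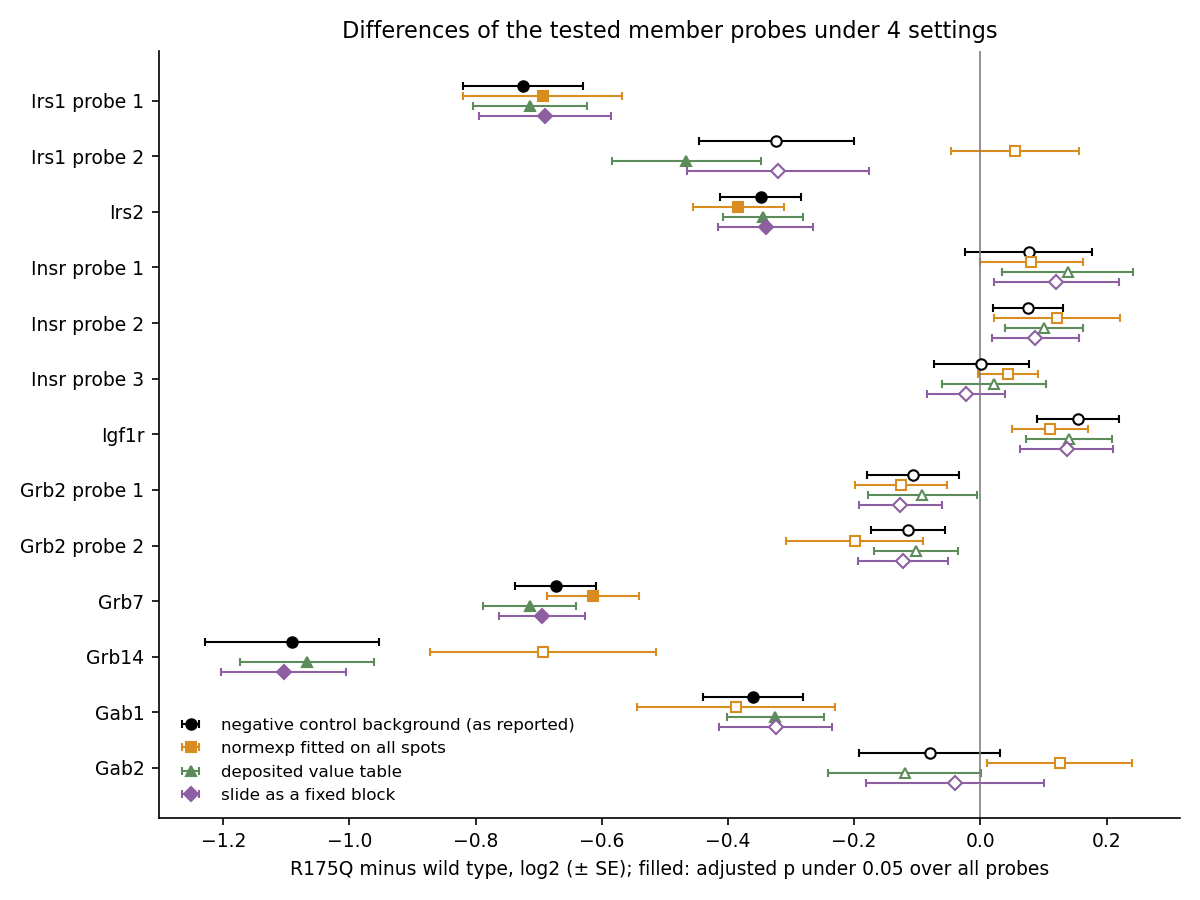
R175Q minus wild type (log2, ± SE) of the 13 tested member probes under 4 settings: the negative control background used for the values reported, normexp fitted on all spots, the deposited value table, and slide as a fixed block. Filled symbols mark an adjusted p under 0.05 over all probes; Irs1 probe 1, Irs2 and Grb7 are filled under all 4.

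Across the 8 arrays the called members had many companions. For Irs1 probe 1 the closest probes of other genes by Pearson's r over the 8 arrays were those of Styk1 (0.996), Strbp (0.994) and Msln (0.992), and for Irs2 they were those of Sdsl (0.993), Irs1 (0.991) and Nrg1 (0.991). For Grb7 they were both probes of Nkain1 (0.996 and 0.995) and that of Prdx1 (0.993), and for Grb14 those of Chp1 (0.992), Smad3 (0.990) and Tmeff1 (0.990). The points share arrays, reference and the split into groups, and 915, 920, 1134 and 627 probes of 20192 or 20193 had an r above 0.9 with Irs1, Irs2, Grb7 and Grb14, in that order, so likeness alone singles out no gene.

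Promoter windows of 7 members were found in RefSeq (GRCm38.p6), and none for Grb7, which was called, or for Insr and Gab2, which were not. The 250 bases upstream of the start are shown for Irs1, Irs2 and Gab1. These are called members whose windows share a word, chosen after the search was seen. Capitals mark TGTTTTG, the reverse complement of CAAAACA, a word of insulin response elements bound by FOXO factors, and GGGCGG, the GC box.
Irs1, chr1:82291440-82291689, minus strand: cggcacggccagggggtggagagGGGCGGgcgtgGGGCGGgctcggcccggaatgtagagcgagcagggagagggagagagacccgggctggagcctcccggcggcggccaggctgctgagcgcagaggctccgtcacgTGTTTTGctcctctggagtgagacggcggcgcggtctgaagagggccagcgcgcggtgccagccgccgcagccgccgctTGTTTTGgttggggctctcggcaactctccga
Irs2, chr8:11008930-11009179, minus strand: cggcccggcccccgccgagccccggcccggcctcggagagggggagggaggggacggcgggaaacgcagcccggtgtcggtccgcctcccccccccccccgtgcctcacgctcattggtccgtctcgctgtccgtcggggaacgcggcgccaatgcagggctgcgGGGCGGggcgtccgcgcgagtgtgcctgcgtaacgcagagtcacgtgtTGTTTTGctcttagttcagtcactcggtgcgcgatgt
Gab1, chr8:80880480-80880729, minus strand: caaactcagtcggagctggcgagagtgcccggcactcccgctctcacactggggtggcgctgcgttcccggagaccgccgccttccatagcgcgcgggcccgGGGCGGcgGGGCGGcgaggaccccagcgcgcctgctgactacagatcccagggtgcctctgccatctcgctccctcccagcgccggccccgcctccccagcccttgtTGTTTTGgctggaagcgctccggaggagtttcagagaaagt
The word CAAAACA, searched on both strands, occurred 2 times in the Irs1 window, 1 time in that of Irs2 and 1 time in 1 of the 2 Gab1 windows, and in 5.56% of all 32851 windows of that length. The 2 Gab1 windows overlap, and the one without the word, at chr8:80880520-80880769, ends inside it. CAAAACA occurred in none of the windows of Igf1r, Grb2, Grb10 and Grb14. The GC box was found 2 times for Irs1, 1 time for Irs2, 2 times for Gab1 and 5 times for Grb14, and, among members not called or not tested, 2 times for Igf1r, 5 times in 1 of the 2 Grb10 windows and 0 times for Grb2, against 32.7% of all windows with at least 1. The FOXO core GTAAACA, the AP-1 word TGANTCA and the ETS word CCGGAAGT, found in 3.17%, 6.75% and 2.88% of all windows on either strand, were in none of the members' windows. The windows held 28 CpG dinucleotides for Irs1, 34 for Irs2, 24 for Grb14, 24 and 25 for Gab1, 42 for Igf1r, 8 and 40 for Grb10 and 2 and 6 for Grb2, against a median of 6 over all windows. A match is a string of letters and not a measured site.

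The rest of the pathway and the chromosomal neighbours of Grb7 were read from 5 lists, each gene by its brightest tested probe. Of 97 genes tested, 7 were called higher and 10 lower in R175Q, or 17.5%, against 19.2% of all 14884 genes with a symbol. The median difference of the 97 genes was 0.021, against −0.0245 over all probes. They include 10 neighbours of Grb7 and Erbb2 chosen by position, so these values are not those of the pathway alone. These lists, like the members, were drawn up with earlier results of these arrays known.

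In the PI3K-AKT-mTOR branch 1 of 28 genes rose and 3 fell. Pde3b, a phosphodiesterase that AKT activates in response to insulin, fell by 1.56 ± 0.06 (SE, adjusted p = 9.72e-07, limma, as for the other genes here), with means of −2.84 in R175Q and −1.27 in wild type. Rps6kb2, an S6 kinase, fell by 0.28 ± 0.06 (adjusted p = 0.00913) and Pik3cb, a catalytic PI3-kinase subunit, by 0.26 ± 0.06 (adjusted p = 0.0154). Tbc1d4, a Rab GTPase-activating protein and AKT substrate in glucose transporter traffic, rose by 0.39 ± 0.09 (adjusted p = 0.0175). Pik3cb and Tbc1d4 were not called with normexp on all spots (adjusted p = 0.364 and 0.162).

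Among Ras-ERK entry and docking adaptors 2 of 27 genes rose and 2 fell. Dok4, a docking protein with a PTB domain, fell by 0.42 ± 0.07 (adjusted p = 0.00192) and Gab3, the third Gab family member, by 0.35 ± 0.10 (adjusted p = 0.0316). Nck2, an SH2 and SH3 adaptor, rose by 0.25 ± 0.06 (adjusted p = 0.0174), though 1 of its 2 probes had the opposite sign, and the kinase Map2k2 rose by 0.18 ± 0.06 (adjusted p = 0.0488). Gab3, Nck2 and Map2k2 were not called with slide as a fixed block, and Gab3 and Map2k2 were not called with normexp on all spots. Of the exchange factors that GRB2 carries, Sos1 differed by 0.11 ± 0.08 (adjusted p = 0.409) and Sos2 by 1.36 ± 0.95 (adjusted p = 0.384), that of Sos2 being 0.14 with slide as a fixed block and 0.69 with normexp on all spots. Irs4, a further receptor substrate, differed by −0.12 ± 0.08 (adjusted p = 0.337). These 3 were named after their values were seen.

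In the list of genes that restrain insulin and IGF signalling 3 of 20 rose and 2 fell. Sh2b2, an SH2 adaptor that binds the activated insulin receptor and is not only an inhibitor, rose by 1.01 ± 0.06 (adjusted p = 6.61e-06), with means of −1.94 in R175Q and −2.95 in wild type, though only by 0.37 (adjusted p = 0.394) with normexp on all spots. Trib2, a pseudokinase, rose by 0.64 ± 0.11 (adjusted p = 0.00234), and Enpp1, a membrane protein that can inhibit the insulin receptor, by 0.48 ± 0.08 (adjusted p = 0.00216), which normexp on all spots gave as 0.055 (adjusted p = 0.893). Ptprf, a receptor phosphatase, fell by 0.61 ± 0.07 (adjusted p = 0.000232), and Socs6, an SH2 protein, by 0.34 ± 0.08 (adjusted p = 0.0119), a call lost with slide as a fixed block (adjusted p = 0.0658) and with normexp on all spots (adjusted p = 0.0914). Trib2 was also not called with normexp on all spots (adjusted p = 0.0613).

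Of 12 FOXO target genes tested, 1 rose and 2 fell. Fbxo32, a ubiquitin ligase of muscle atrophy, rose by 0.54 ± 0.14 (adjusted p = 0.0217), while Sesn3, a sestrin, fell by 0.59 ± 0.10 (adjusted p = 0.00256) and Cat, catalase, by 0.26 ± 0.08 (adjusted p = 0.0466). Bcl6, a transcriptional repressor, differed by 0.31 ± 0.14 (adjusted p = 0.166). None of these 3 was called with normexp on all spots, and Fbxo32 and Cat were not called with slide as a fixed block. Igfbp1, Pck1, G6pc, Ccng2, Klf15, Pdk4 and Trim63 were on the array and did not pass the brightness filter.

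The genes beside Grb7 on its chromosome were read because Grb7 and Erbb2 are neighbours. Of 10 tested, 0 rose and 1 fell, Cdk12, a kinase of transcription, by 0.20 ± 0.06 (adjusted p = 0.0348), with 2 of its 3 probes of opposite sign and no call with slide as a fixed block (adjusted p = 0.0852) or with normexp on all spots (adjusted p = 0.402). Erbb2 differed by −0.13 ± 0.06 (adjusted p = 0.179), with means of −0.79 ± 0.09 in R175Q and −0.65 ± 0.04 in wild type (SD, n = 4 each), Stard3 by 0.20 ± 0.07 (adjusted p = 0.0751) and Psmd3 by −0.099 ± 0.066 (adjusted p = 0.357). Whether the difference of Grb7 exceeds that of Erbb2 was not tested. The cells express activated Neu (ErbB2), and how far the Erbb2 probe reads it was not determined.

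**Figure D5:**
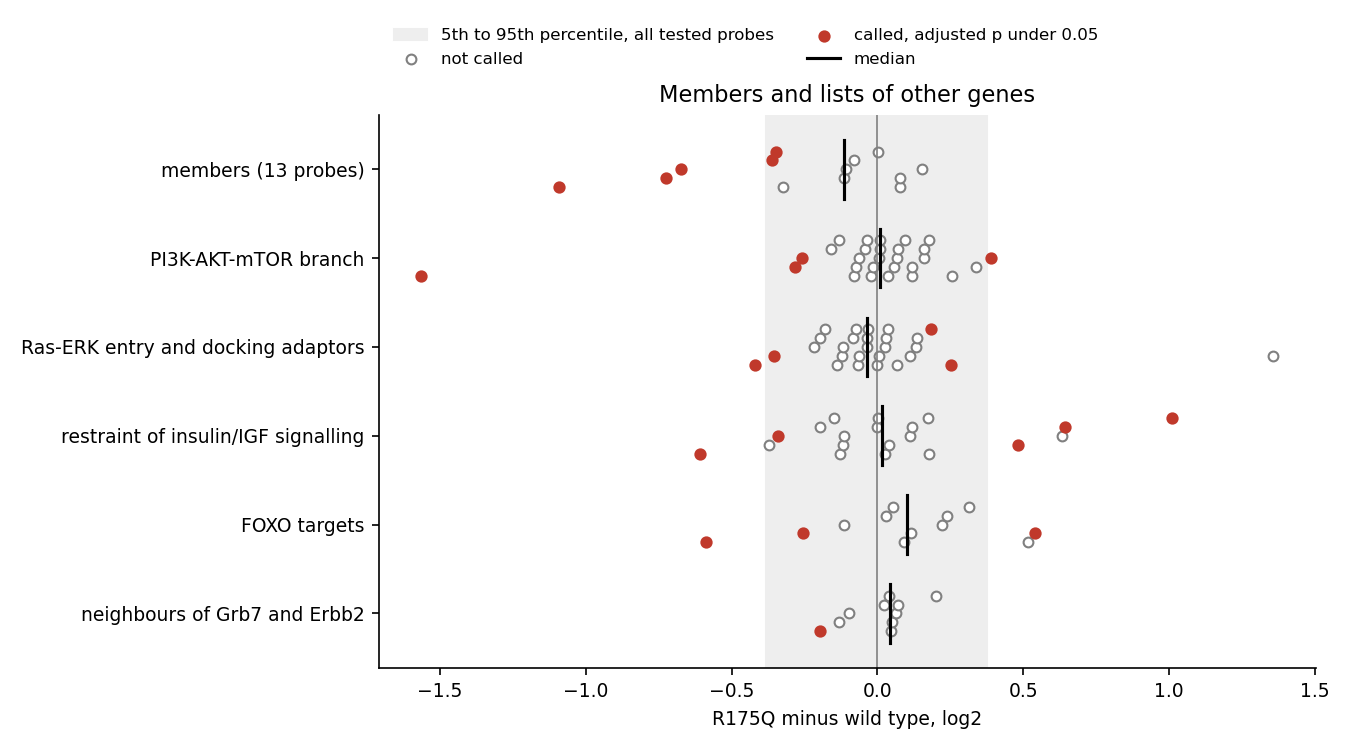
R175Q minus wild type (log2) of the 13 tested member probes and of the genes of 5 lists, each gene by its brightest probe. Red points were called at an adjusted p under 0.05, open points were not, black bars are medians, and the grey band runs from the 5th to the 95th percentile of all tested probes (−0.384 to 0.374). Of the members, Irs1 probe 1, Grb7 and Grb14 lie left of the band. So do Pde3b, Ptprf, Sesn3 and Dok4 of the lists, and other list genes, Sh2b2 and Sos2 among them, lie right of it.

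Some markers of the labelled cell type and of other cell types were called in the same comparison. Over all 14884 genes with a symbol 19.2% were called, and the marker lists are short, so nothing is read from their counts. Of 6 fibroblast markers tested, 4 rose, Pdgfrb by 1.18 ± 0.10 (adjusted p = 4.86e-05), Col1a2 by 0.58 ± 0.09 (adjusted p = 0.00202), Dcn by 0.72 ± 0.14 (adjusted p = 0.00492) and Col3a1 by 0.39 ± 0.10 (adjusted p = 0.0289), the list mean per array being −6.27 to −5.96 in R175Q and −6.83 to −6.58 in wild type. With normexp on all spots none of the 6 was called: Pdgfrb differed by 0.66 and Col1a2 by 0.087, and the sign turned for Dcn (−0.042), Col3a1 (−0.28) and the uncalled Pdgfra (−0.35) and Col1a1 (−0.56). Lum and Postn did not pass the brightness filter. Of 7 luminal epithelial markers tested, 3 fell, Muc1 by 0.53 ± 0.08 (adjusted p = 0.000981), Krt19 by 0.40 ± 0.08 (adjusted p = 0.00846) and Krt8 by 0.21 ± 0.06 (adjusted p = 0.0389), with list means of 0.231 to 0.296 in R175Q and 0.428 to 0.561 in wild type. Muc1 and Krt8 were not called with normexp on all spots, nor Krt19 and Krt8 with slide as a fixed block. Of 3 adipocyte markers tested, Fabp4 fell by 1.02 ± 0.11 (adjusted p = 0.000226, limma). Retn (−0.18 ± 0.09) and Cidec (−0.08 ± 0.12) were not called. The list means were −0.51 to −0.208 in R175Q and 0.0193 to 0.12 in wild type. The defining markers Adipoq, Plin1, Lep and Cfd did not pass the brightness filter. Of 7 myeloid markers tested 0 rose and 2 fell (Mrc1 and Adgre1), and of 3 endothelial markers 1 rose (Vwf) and 0 fell. Of 2 skeletal muscle markers 0 rose and 0 fell. Mrc1, Adgre1 and Vwf were not called with normexp on all spots (adjusted p = 0.905, 0.493 and 0.476, limma). Adgre1 was also not called with slide as a fixed block (adjusted p = 0.0982). In such bulk RNA fewer cells of a type and less RNA per cell cannot be told apart, and the part of these markers in the differences of the members was not tested.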

How the data were processed

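Spot mean intensity, local background median intensity and a processed log10 ratio (Cy5 over Cy3) were written by Agilent Feature Extraction 9.5.3.1, per the file headers, with positions in mm9. The deposited value table holds log2 ratios, taken as Cy3 over Cy5 because it correlated at 0.902 to 0.941 with the scanner's ratio turned that way (slopes 0.657 to 0.751 across probes); its scale and centring by the authors are not given in the sources used here. By replicate number, the median of its columns was 0.0585, 0.0562, 0.0607 and 0.0546 in the R175Q group, against 0.0524, 0.0617, 0.0592 and 0.0556 in the wild-type group.

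From the intensities, background was corrected by normexp with mean and SD from the 153 negative control spots of each array and channel, offset 50, then loess within arrays with control spots at weight 0 (limma 3.58.1, statmod 1.5.0, R 4.3.3). Negative controls were used because normexp fitted on all spots gave background levels far from theirs. Outlier spots were left out and spots of a probe averaged. Of 39429 probes, 22969 passed the brightness filter (well above background in the sample channel, 4 or more of 8 arrays), and 122 with an outlier value were left out. R175Q and wild type, 4 arrays each, were compared by limma's moderated test (lmFit, eBayes, two-sided), adjusted by Benjamini-Hochberg over the 22847 probes, threshold 0.05. The number of arrays limits the precision. Current symbols came through RefSeq accessions (GRCm38.p6) for 26761 probes. The test was checked on simulated data.

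All probes of the 10 members are described. In each list up to 4 genes with the lowest unadjusted p are named, and likeness names the 3 most correlated probes. Socs6, the genes below the filter, and Cdh1, Epcam, Cldn7, Pdgfra, Col1a1, Sos1, Sos2 and Irs4 were chosen after values were seen. The members, lists and the background correction were chosen with earlier results of these data known. Alternatives covered the background, normalization, Cy3 alone, the deposited table, filters, the variance model, slide, scan day, replicate number and leaving out each array.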

Additional observations from a re-analysis of the deposited data

Results flagged for a closer look

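Among 28 groups of 4 arrays (14 probes in each of 2 groups) 2 held an array far from the other 3 by Dixon's test, and chance flags about 1 in 20. Irs1 probe 1 stood at −2.263 on R175Q replicate 3, against −2.358 to −2.343 on the other R175Q arrays, a gap of 0.844 of the group's range. Irs2 stood at −1.573 on wild-type replicate 3, against −1.775 to −1.761 on the other wild-type arrays, a gap of 0.93 of the range. Both arrays lay on slide 3.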

How the results depend on the processing

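Of 271 differences of member probes under 21 alternatives, 245 kept their direction and their side of the threshold, 4 lost a call, 5 gained one and 17 changed sign. The lost calls were Grb14 (−0.69) and Gab1 (−0.39) with normexp on all spots, Irs2 (−0.24) with median centring and Gab1 (−0.32) with slide as a fixed block; the gained calls were all of Irs1 probe 2. The changes of sign were all of uncalled probes. With normexp on all spots they were Irs1 probe 2 (0.055) and Gab2 (0.13), with median centring Grb2 probes 1 and 2 (0.015 and 0.032) and Gab2 (0.011), and with Cy3 alone Grb2 probe 2 (0.0020). Insr probe 3 turned to −0.0083 with no background correction, −0.16 with Cy3 alone, −0.022 with slide as a fixed and −0.0016 as a random block, and −0.032 with scan day as a block. Leaving out 1 array gave −0.041 to 0.046 for Insr probe 3, −0.0073 to 0.14 for Insr probe 1 and −0.41 to −0.23 for Irs1 probe 2. The cause of these changes was not tested.

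Of all probes, 484 were called higher and 432 lower with normexp on all spots (all 916 were also called in the reported values, in the same direction), and 2791 and 813 with median centring. Leaving out 1 array gave 1292 (without R175Q replicate 2) to 2500 (without wild-type replicate 3) higher and 1462 (without wild-type replicate 1) to 2652 lower. For the 5 lists, 1 gene was higher and 4 lower with normexp on all spots, and 12 and 3 with median centring. The counts were 4 and 6 with slides as fixed blocks and 4 and 5 with scan day as a block. In the Cy3 channel alone 5 were lower. Leaving out 1 array gave 5 to 15 higher, the 15 without wild-type replicate 3, and 6 to 11 lower, the 6 without R175Q replicate 1 or 2. Same-numbered arrays correlated in their deviations at 0.327, 0.0127, 0.464 and 0.0543, so the numbers were not taken to pair samples; R175Q replicates 1 and 3 correlated best with the wild-type array of their own number and the other 2 did not. With the replicate block 2095 probes were higher and 2515 lower, and 13 genes of the 5 lists were higher. The calls of the 5 member probes did not change with that block. Signal over background limits Irs1 probe 2 and Gab2, well above background on 6 of 8 arrays, and Grb10, on 0. Insr probe 3 and Grb14 were well above background on 8 of 8 arrays but also had low intensities.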
